A study of Mus musculus with 8 samples.

Results

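The genes of bone morphogenetic protein (BMP) signaling described here are the ligand genes Bmp2, Bmp4 and Bmp6, the antagonist genes Grem1 and Nog, and the inhibitor of DNA binding genes Id1, Id2, Id3 and Id4. They were chosen by gene symbol, and each symbol matched 1 row of the count table, so the group holds 9 of the 50578 genes listed. The Ensembl identifiers in that table are ENSMUSG00000027358 for Bmp2, ENSMUSG00000021835 for Bmp4, ENSMUSG00000039004 for Bmp6, ENSMUSG00000074934 for Grem1, ENSMUSG00000048616 for Nog, ENSMUSG00000042745 for Id1, ENSMUSG00000020644 for Id2, ENSMUSG00000007872 for Id3 and ENSMUSG00000021379 for Id4. RNA-seq had been performed on control mouse embryonic fibroblasts (MEFs) and on MEFs cultured with 1 of 3 compounds (10 µM each). Each of the 4 groups had 2 libraries.

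MEFs are connective tissue cells grown from embryos. Those used here came from the trunk tissue of C57BL/6J mouse embryos, and the labels give the genotype of every library as WT. Cells of passage 3 to 5 attached for 2 h before a compound was added, and the medium with compound was renewed at intervals. The MEF group is labelled Control, and no vehicle is named for it, so an effect of the compound and an effect of its vehicle cannot be told apart. The time of harvest for RNA-seq is not given in the sources used here. Carbidopa inhibits aromatic-L-amino-acid decarboxylase, CHIR-99021 inhibits the kinase GSK3 and thereby activates Wnt signaling, and LY-364947 inhibits the type I TGF-beta receptor. The labels write LY-364747 for this last compound, and the name used by the study is kept here. The labels do not state whether the 2 libraries of a group came from separate cultures, so p-values measure the spread between these libraries, which may be technical.

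BMPs are secreted proteins of the TGF-beta superfamily. They bind type I and type II receptor kinases, which phosphorylate SMAD1, SMAD5 and SMAD9, and these enter the nucleus with SMAD4. Gremlin 1 and noggin bind BMP ligands outside the cell and keep them from their receptors. The Id genes are classical direct targets of the SMAD complex. Id proteins carry a helix-loop-helix domain without a DNA-binding region and hold E proteins away from DNA, and in many cell types they are associated with an undifferentiated, dividing state.

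Library totals ranged from 15039566 to 20504338 counts, and 15154 genes had enough counts for a test. All 9 genes were among them, with counts from 6 (Nog in an LY-364947 library) to 11091 (Grem1 in a MEF library). The treated cells are labelled hepatic-like, but of 10 hepatocyte markers Serpina1a and Cyp2e1 had no read in any library. Trf alone had enough counts for a test and was called higher under carbidopa only (log2 fold change 0.80). The 10 markers summed to 7.29 and 7.23 CPM (counts scaled to a common library size) in MEFs. They summed to 13.9 and 10.7 CPM with carbidopa, 10.61 and 10.65 CPM with LY-364947, and 6.33 and 4.29 CPM with CHIR-99021. Reads of Alb went from 2 and 0 in MEFs to 5 to 10 in treated libraries, and of Hnf4a from 1 and 2 to 6 to 10. Those of Apob went from 10 and 2 to 0 to 6. The summed level of 10 fibroblast markers was 34770 to 35110 CPM in MEFs and 8130 to 11720 CPM in treated cells. Fn1 alone had a mean of 18970 CPM in MEFs and so carried most of that sum. In each treatment 8 of the 10 fibroblast markers were called lower, whereas Pdgfra was called higher (log2 fold changes 0.49 under carbidopa, 0.36 under LY-364947 and 0.64 under CHIR-99021), and the 1 that was not called was Dcn with carbidopa and LY-364947 and Pdgfrb with CHIR-99021. The 10 macrophage markers summed to 1044 and 1086 CPM in MEFs, 309 and 323 CPM in carbidopa libraries, 233 and 236 CPM in LY-364947 libraries, and 75.8 and 83.6 CPM in CHIR-99021 libraries, with only Aif1 at 0, in 1 CHIR-99021 library. The 10 endothelial markers summed to 24.5 and 26.9 CPM in MEFs and 13.3 to 18.6 CPM in treated cells, with Cldn5 at 0 in all libraries. The 8 epithelial markers summed to 4.24 and 3.29 CPM in MEFs and 9.82 to 21.6 CPM in treated cells. Of 3 tested, 1, 1 and 3 were called higher under carbidopa, LY-364947 and CHIR-99021, respectively. Of all genes tested, 18.0%, 13.7% and 18.7% were higher and 19.7%, 17.2% and 20.1% lower in these treatments. Cldn4 had 2 and 2 reads in MEFs and 36 and 29 with CHIR-99021, and Krt18 had 5 and 10 against 45 and 48. Both had enough counts for a test only through treated libraries. The filter thus favoured calls of higher for them, and the counts called carry no weight beside the shares of all genes. Krt19 carried most of the epithelial sum, with means of 2.76 CPM in MEFs and 15.3, 9.38 and 7.05 CPM in the treated groups. The epithelial markers that were not tested had at most 6 reads in any library. The 8 skeletal muscle markers went from 33.2 and 32.5 CPM to 8.31 to 13.3 CPM. Des carried most of that sum (mean 30.9 CPM in MEFs) and was called lower in each treatment. Actn2 was called lower under LY-364947 and CHIR-99021, and Ttn higher under CHIR-99021. The 8 chondrocyte markers went from 24.2 and 21.2 CPM to 11.4 to 17.8 CPM. Sox9 carried most of that sum (mean 21.1 CPM in MEFs) and was called lower in each treatment. Col11a2 was called higher under carbidopa, LY-364947 and CHIR-99021 (log2 fold changes 1.93, 1.68 and 2.43), and Hapln1 under carbidopa. The part of these cells in the results below was not tested, and fewer cells of a type and less RNA per cell cannot be told apart in bulk libraries. CPM values here were normalized by the trimmed mean of M values (TMM).

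The promoter sequences of the antagonist Grem1, the ligand Bmp4, and the Id genes Id2 and Id4 are shown because they allow the letters in front of falling genes to be compared with those in front of Id genes that separated the compounds. They run 5′ to 3′ on the strand of the gene and lie in the 250 bases before the RefSeq start (GRCm38.p6, the assembly also called mm10), outside the exons that GENCODE M21 annotates. Capitals mark GGCGCC, a GC-rich motif bound by SMAD1 and SMAD5, and CAGAC, a SMAD-binding element, each searched on both strands. The 2 motifs do not overlap in these stretches.
Grem1, chr2:113758649-113758898, minus strand: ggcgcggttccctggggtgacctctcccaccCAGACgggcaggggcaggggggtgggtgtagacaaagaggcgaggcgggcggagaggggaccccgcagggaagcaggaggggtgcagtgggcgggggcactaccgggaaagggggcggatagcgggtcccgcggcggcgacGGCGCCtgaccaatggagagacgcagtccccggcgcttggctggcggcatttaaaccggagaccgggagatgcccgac
Bmp4, chr14:46390670-46390919, minus strand: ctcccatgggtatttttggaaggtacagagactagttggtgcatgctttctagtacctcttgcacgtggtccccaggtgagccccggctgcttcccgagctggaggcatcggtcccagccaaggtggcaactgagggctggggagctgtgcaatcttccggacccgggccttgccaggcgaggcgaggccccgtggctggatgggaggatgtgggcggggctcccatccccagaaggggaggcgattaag
Id2, chr12:25096254-25096342, minus strand: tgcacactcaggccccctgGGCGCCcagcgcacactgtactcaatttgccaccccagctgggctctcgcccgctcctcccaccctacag
Id4, chr13:48260866-48261115, plus strand: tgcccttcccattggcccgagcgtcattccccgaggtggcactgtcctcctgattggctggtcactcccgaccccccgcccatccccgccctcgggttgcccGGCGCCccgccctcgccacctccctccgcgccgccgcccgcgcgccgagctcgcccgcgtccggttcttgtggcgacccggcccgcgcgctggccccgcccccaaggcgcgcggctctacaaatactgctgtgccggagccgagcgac

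Grem1 held GGCGCC starting 78 bases and CAGAC starting 219 bases before the start. GGCGCC started 231 bases before that of Id2 and 148 bases before that of Id4. Neither motif was found in these letters of Bmp4. Among 32851 promoters of the table, 9.59% held GGCGCC and 42.2% held CAGAC in their 250 bases before the start, and 3.60% held both. The printed stretches are 63.2% to 75.6% G and C, and these shares were not matched for that content. The match of a motif is a description of the letters and says nothing about binding. For Bmp6 and Id3 the whole window lay in exons of longer transcripts and is not printed, and the Id2 stretch was shortened to 89 bases for the same reason. That Id2 stretch lies inside the annotated span of the gene (25093799 to 25097140), in an intron. The stretches of Grem1, Bmp4 and Id4 lie outside their genes. Id1, Bmp2 and Nog had no entry.

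In carbidopa-treated cells, 5 of the 9 genes were higher than in MEFs (Id3, Bmp2, Id1, Bmp6 and Id2) and 3 were lower (Grem1, Nog and Bmp4), whereas 18.0% of all genes tested were higher and 19.7% lower. LY-364947 gave the same 5 higher and the same 3 lower genes, against 13.7% and 17.2% of all genes. With CHIR-99021, Id3 and Id1 were higher and 5 genes were lower (Grem1, Nog, Bmp4, Id4 and Id2), against 18.7% and 20.1%. All 3 comparisons share the MEF libraries and are therefore not independent of each other. The 9 genes had a median log2 fold change of 0.80 under carbidopa, 0.58 under LY-364947 and -0.49 under CHIR-99021, beside 0.04, 0.03 and 0.04 over all genes tested. In each treatment this median was the value of Id2. The group mixes genes that rose with genes that fell, so the median does not describe a shift of the group. Without carbidopa replicate 1, whose Id1 and Id3 levels stood above all other libraries, the carbidopa counts were again 5 higher and 3 lower.

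**Figure D1:**
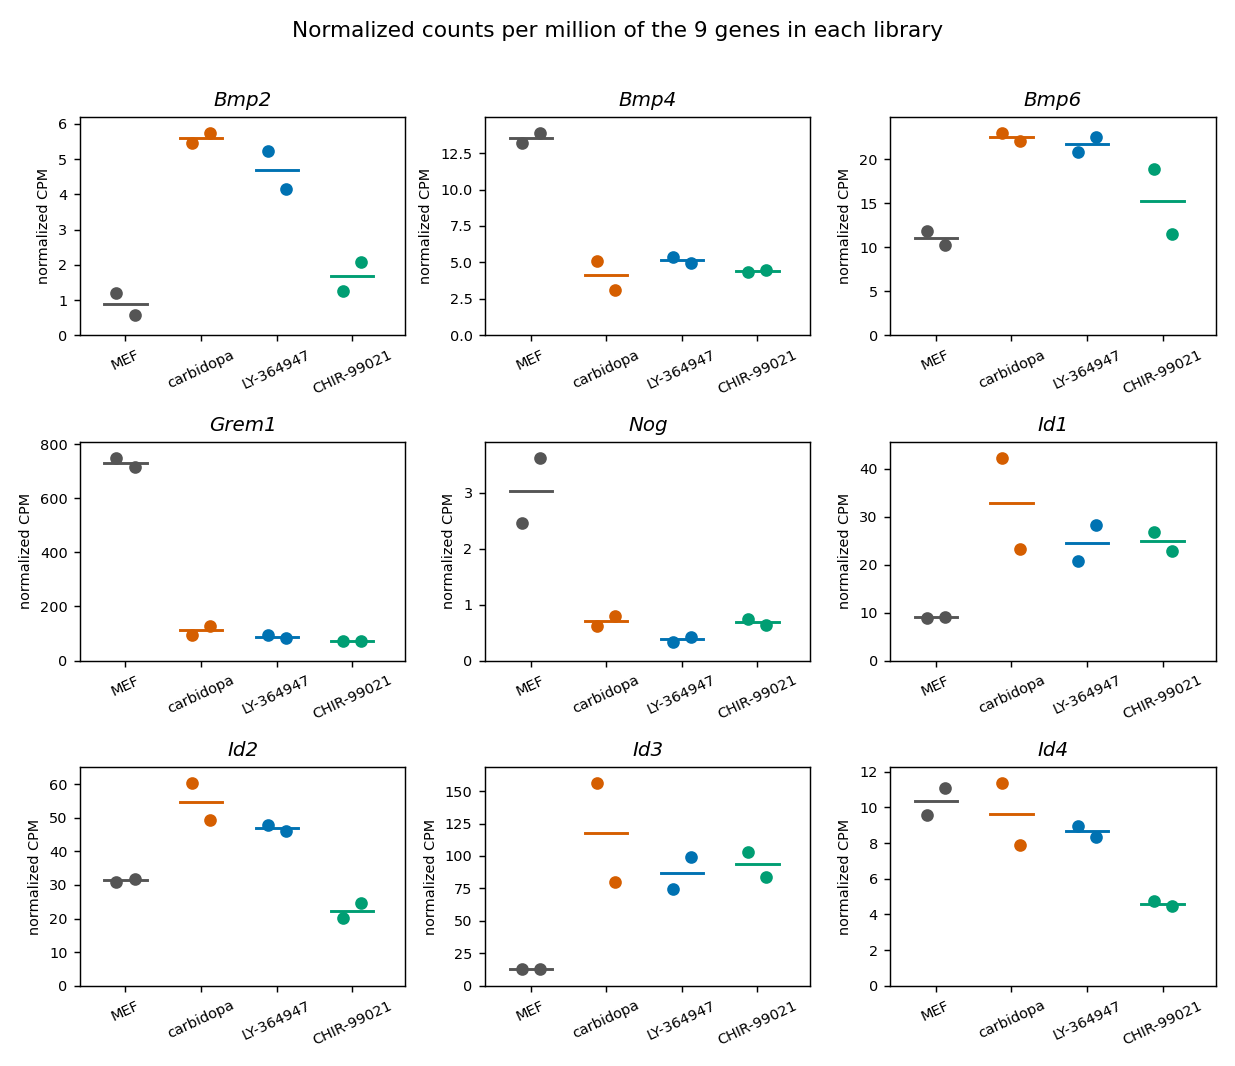
TMM-normalized CPM of each gene on a linear axis that starts at 0, with 1 point per library and a line at the mean of the 2 libraries of a group. Grem1 stands at 716 and 748 CPM in MEFs and at 73.3 to 127 CPM in the treated libraries, and Id3 at 12.5 and 12.9 CPM in MEFs and 74.6 to 156 CPM in the treated libraries.

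**Figure D2:**
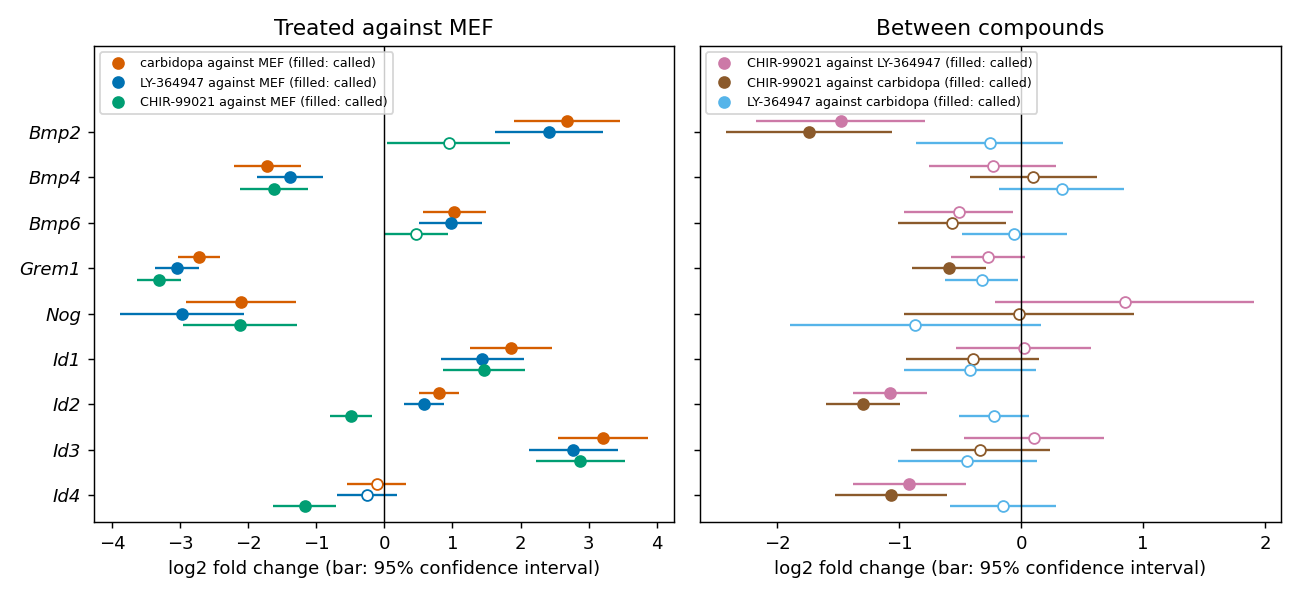
Log2 fold changes of the 9 genes with their 95% confidence intervals from edgeR, for each treatment against MEF (left) and between compounds (right), with filled points at an adjusted p under 0.05. Id3 and Grem1 lie on opposite sides of 0 in each treatment, and Id2, Id4 and Bmp2 are the genes on which CHIR-99021 differs from both other compounds.

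Grem1, which encodes gremlin 1, lies on chromosome 2 of mm10 (113746164 to 113758646, minus strand, 2 exons after merging of its transcripts). It was the most abundant of the 9 genes in MEFs, also per length of exon. MEF libraries held 748 and 716 CPM, carbidopa libraries 94.8 and 127 CPM, LY-364947 libraries 93.6 and 83.7 CPM, and CHIR-99021 libraries 73.3 and 73.7 CPM. All 6 treated libraries were below both MEF libraries, and the replicates of a group differed by at most 1.34-fold. Grem1 fell 6.59-fold with carbidopa (log2 fold change -2.72, standard error 0.14, edgeR adjusted p = 2.56e-07). With LY-364947 it fell 8.25-fold (edgeR adjusted p = 1.30e-07) and with CHIR-99021 9.95-fold (edgeR adjusted p = 7.97e-08). With each library left out in turn, the log2 fold changes stayed between -3.35 and -2.52 over the 3 comparisons, and all were called.

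The mean of Grem1 was lowest in the CHIR-99021 libraries. CHIR-99021 was below carbidopa by 0.59 on the log2 scale (log2 fold change -0.59, 95% confidence interval -0.90 to -0.29, edgeR adjusted p = 0.0167). This call rested on both CHIR-99021 libraries, since the edgeR adjusted p was 0.126 without replicate 1 and 0.0938 without replicate 2, and 0.0713 when only these groups were fitted. CHIR-99021 and LY-364947 did not differ at the threshold (log2 fold change -0.27, 95% confidence interval -0.57 to 0.03), and neither did LY-364947 and carbidopa (-0.32, -0.62 to -0.02, edgeR adjusted p = 0.519).

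Nog encodes noggin and lies on chromosome 11 (89300638 to 89302332, minus strand, 1 exon). Its level was low in all libraries. It had 33 and 56 counts in MEF libraries (2.45 and 3.61 CPM), 13 and 17 in carbidopa libraries, 6 and 8 in LY-364947 libraries, and 13 and 11 in CHIR-99021 libraries. Every treated library was below both MEF libraries, at 0.337 to 0.793 CPM. Nog fell by 2.11 on the log2 scale with carbidopa (standard error 0.36, edgeR adjusted p = 0.00131), by 2.97 under LY-364947 (0.41, 2.94e-04) and by 2.12 under CHIR-99021 (0.38, 0.00142). No difference between compounds passed the threshold, and with so few reads the intervals are wide: LY-364947 minus carbidopa was -0.87 on the log2 scale (95% confidence interval -1.90 to 0.16).

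Among the ligand genes, Bmp4 went the other way from Bmp2 and Bmp6. Bmp4 lies on chromosome 14 (46383520 to 46390669, minus strand), and its protein acts in patterning of the mesoderm and in limb and organ development. MEF libraries held 13.2 and 13.9 CPM. Carbidopa libraries held 5.08 and 3.13 CPM, LY-364947 libraries 5.39 and 4.95 CPM, and CHIR-99021 libraries 4.32 and 4.47 CPM. No treated library reached a MEF library. Bmp4 fell 3.29-fold with carbidopa (log2 fold change -1.72, standard error 0.22, edgeR adjusted p = 1.69e-04), 2.61-fold with LY-364947 (-1.39, 0.22, 7.33e-04) and 3.07-fold with CHIR-99021 (-1.62, 0.22, 2.63e-04). The compounds did not differ from each other in Bmp4 at the threshold, with intervals of -0.75 to 0.28 for CHIR-99021 minus LY-364947 and -0.42 to 0.62 for CHIR-99021 minus carbidopa.

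Bmp2 lies on chromosome 2 (133552159 to 133562885, plus strand), and its protein induces bone and cartilage. Its level was low in MEFs, with 16 and 9 counts (1.19 and 0.581 CPM). Carbidopa libraries held 5.46 and 5.74 CPM, LY-364947 libraries 5.22 and 4.15 CPM, and CHIR-99021 libraries 1.27 and 2.09 CPM. The carbidopa and LY-364947 libraries were all above the others, while CHIR-99021 replicate 1 was close to MEF replicate 1. Bmp2 rose 6.40-fold with carbidopa (log2 fold change 2.68, standard error 0.35, edgeR adjusted p = 2.03e-04) and 5.35-fold with LY-364947 (2.42, 0.36, 4.93e-04). With CHIR-99021 the log2 fold change was 0.94 (0.40, edgeR adjusted p = 0.0902), which passed the threshold only without a filter on low counts (adjusted p = 0.0365).

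Bmp2 was lower with CHIR-99021 than with carbidopa by 1.74 on the log2 scale (log2 fold change -1.74, standard error 0.31, edgeR adjusted p = 0.00447) and than with LY-364947 (-1.48, 0.31, 0.0115). The first call was lost without CHIR-99021 replicate 1 (edgeR adjusted p = 0.0605), and the second without CHIR-99021 replicate 1 (0.129) or LY-364947 replicate 1 (0.108). LY-364947 minus carbidopa was -0.26 (95% confidence interval -0.86 to 0.34).

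Bmp6 lies on chromosome 13 (38345107 to 38500302, plus strand), and its protein is best known for control of hepcidin and iron in the liver. It was at 11.8 and 10.3 CPM in MEFs. It stood at 23.0 and 22.1 CPM in carbidopa libraries, 20.8 and 22.5 CPM in LY-364947 libraries, and 18.9 and 11.5 CPM in CHIR-99021 libraries. The carbidopa and LY-364947 libraries lay close together above both MEF libraries, whereas the CHIR-99021 libraries differed 1.65-fold and the lower one was between the MEF libraries. Bmp6 rose 2.04-fold with carbidopa (log2 fold change 1.03, standard error 0.21, edgeR adjusted p = 0.00328) and 1.97-fold with LY-364947 (0.98, 0.21, 0.00499). The second call was lost without MEF replicate 2 (edgeR adjusted p = 0.0577). With CHIR-99021 the log2 fold change was 0.47 (0.21, edgeR adjusted p = 0.109), and 0.79 without CHIR-99021 replicate 2 (0.00811) against 0.06 without replicate 1 (0.837). Exons of Bmp6 share 224 bases with Txndc5 on the opposite strand, which had a mean of 476 CPM in MEFs and 394 to 405 CPM in treated cells. The counting is not stated to use strand, so a part of the reads on Bmp6 is uncertain.

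Id3 showed the largest fold among the 9 genes that were higher. It lies on chromosome 4 (136143497 to 136145755, plus strand). MEF libraries held 12.9 and 12.5 CPM, carbidopa libraries 156 and 79.9 CPM, LY-364947 libraries 74.6 and 99.2 CPM, and CHIR-99021 libraries 103 and 84.2 CPM. The lowest treated library was 74.6 CPM, far above both MEF libraries. Id3 rose 9.26-fold with carbidopa (log2 fold change 3.21, standard error 0.30, edgeR adjusted p = 1.56e-05), 6.83-fold with LY-364947 (2.77, 0.29, 4.65e-05) and 7.35-fold with CHIR-99021 (2.88, 0.29, 3.32e-05). The carbidopa replicates differed 1.95-fold, and the log2 fold change with carbidopa was 2.65 without replicate 1 and 3.62 without replicate 2.

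Id1 followed Id3 at a lower amplitude. It lies on chromosome 2 (152736251 to 152737410, plus strand). MEF libraries held 8.92 and 9.16 CPM, carbidopa libraries 42.2 and 23.4 CPM, LY-364947 libraries 20.7 and 28.4 CPM, and CHIR-99021 libraries 26.9 and 22.9 CPM. Treated and MEF libraries did not overlap. Id1 rose 3.62-fold with carbidopa (log2 fold change 1.86, standard error 0.27, edgeR adjusted p = 4.08e-04), 2.71-fold with LY-364947 (1.44, 0.27, 0.00236) and 2.75-fold with CHIR-99021 (1.46, 0.27, 0.00195). All 3 calls held with any 1 library left out, with log2 fold changes from 1.19 to 2.22.

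The compounds did not differ at the threshold in Id1 or Id3. CHIR-99021 minus LY-364947 was 0.11 on the log2 scale for Id3 (95% confidence interval -0.47 to 0.68) and 0.02 for Id1 (-0.53 to 0.57). The differences from carbidopa rested on carbidopa replicate 1. LY-364947 minus carbidopa was -0.44 for Id3 and -0.42 for Id1 with all libraries, 0.12 and 0.07 without carbidopa replicate 1, and -0.84 and -0.78 without carbidopa replicate 2, when both were called (edgeR adjusted p = 0.00338 and 0.00696).

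Id2 and Id4 separated CHIR-99021 from the other compounds. Id2 lies on chromosome 12 (25093799 to 25097140, minus strand). Its levels were 30.9 and 31.8 CPM in MEF libraries, 60.3 and 49.3 CPM in carbidopa libraries, 47.9 and 46.1 CPM in LY-364947 libraries, and 20.1 and 24.6 CPM in CHIR-99021 libraries. The order was carbidopa and LY-364947 above MEF above CHIR-99021, without overlap between these 3 levels. Id2 rose 1.75-fold with carbidopa (log2 fold change 0.80, standard error 0.13, edgeR adjusted p = 0.00102) and also rose under LY-364947 (0.58, 0.13, 0.00773), and fell 1.40-fold with CHIR-99021 (-0.49, 0.14, 0.0179). The LY-364947 call was lost without MEF replicate 1, MEF replicate 2 or LY-364947 replicate 1 (edgeR adjusted p = 0.0684, 0.0555 and 0.0540). The CHIR-99021 call was lost without MEF replicate 1, MEF replicate 2 or CHIR-99021 replicate 1 (0.0750, 0.0993 and 0.169).

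The direct difference in Id2 was firmer. Id2 was 2.45-fold lower with CHIR-99021 than with carbidopa (log2 fold change -1.29, standard error 0.14, edgeR adjusted p = 2.28e-04) and 2.10-fold lower than with LY-364947 (-1.07, 0.14, 7.41e-04). Both calls held in all 8 fits with 1 library left out. Carbidopa and LY-364947, the neighbours at the top of the order, did not differ at the threshold (LY-364947 minus carbidopa -0.22, 95% confidence interval -0.51 to 0.07).

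Id4 lies on chromosome 13 (48261228 to 48266026, plus strand). It was at 9.59 and 11.1 CPM in MEF libraries, 11.3 and 7.88 CPM in carbidopa libraries, 8.98 and 8.36 CPM in LY-364947 libraries, and 4.72 and 4.47 CPM in CHIR-99021 libraries. Carbidopa libraries overlapped the MEF libraries, and both CHIR-99021 libraries were below all others. Id4 fell 2.25-fold with CHIR-99021 (log2 fold change -1.17, standard error 0.21, edgeR adjusted p = 0.00154). The log2 fold change was -0.11 under carbidopa (95% confidence interval -0.54 to 0.33) and -0.26 under LY-364947 (-0.70 to 0.18). CHIR-99021 was below carbidopa (log2 fold change -1.06, standard error 0.21, edgeR adjusted p = 0.00742) and LY-364947 (-0.91, 0.21, 0.0169). The first was lost without either CHIR-99021 library (edgeR adjusted p = 0.0600 and 0.0590), and the second without any 1 of the CHIR-99021 or LY-364947 libraries (0.0650 to 0.115).

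Between compounds, 3 of the 9 genes were lower with CHIR-99021 than with LY-364947 (Id2, Id4 and Bmp2) and none higher, whereas 7.69% of all genes were lower and 6.45% higher. Against carbidopa, 4 were lower (Id2, Id4, Bmp2 and Grem1) and none higher, beside 8.08% and 6.62% of all genes. At an unadjusted p under 0.05, Bmp6 was a further gene lower with CHIR-99021 in both comparisons, and no member was higher. LY-364947 and carbidopa differed in none of the 9 genes by edgeR or by DESeq2, beside 0.0132% of all genes in either direction. Only Grem1 had an unadjusted p under 0.05 in that comparison.

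Per length of exon, the balance between the genes shifted as well. These ratios were chosen after the values had been seen and are descriptions without a test. In RPKM (TMM-normalized CPM per kilobase of exon), Id2 was the most abundant Id gene in MEFs, with 42.2% and 42.3% of the summed Id RPKM, and Id3 held 24.0% and 22.7%. In all 6 treated libraries Id3 was the most abundant, with 51.1% to 63.8% of the sum. Id2 then held 16.4% and 23.2% in carbidopa libraries, 24.1% and 18.7% in LY-364947 libraries, and 9.14% and 12.9% in CHIR-99021 libraries. The share of Id1 was 21.9% to 25.7% in all 8 libraries. The ratio of Id3 to Id1 RPKM was 0.939 and 0.885 in MEFs and 2.21 to 2.48 in treated libraries, also in the carbidopa libraries, whose Id3 levels differed 1.95-fold.

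Among the ligand genes, Bmp4 held 63.5% and 68.8% of the summed RPKM of Bmp2, Bmp4 and Bmp6 in MEFs, and Bmp6 held 53.4% to 68.1% in the treated libraries. The sum itself was 9.22 and 8.97 RPKM in MEF libraries, 9.69 and 8.66 in carbidopa libraries, 9.21 and 9.15 in LY-364947 libraries, and 7.13 and 5.52 in CHIR-99021 libraries. The ratio of Grem1 to this sum was 19.5 and 19.2 in MEFs and 2.21 to 3.54 in treated libraries. Other ligand genes are not in this sum. Among them Gdf6 had means of 5.97 RPKM in MEFs and 10.4, 8.90 and 7.55 RPKM with carbidopa, LY-364947 and CHIR-99021. Those of Bmp6 in the same treatments were lower, at 5.77, 5.56 and 3.90 RPKM. RNA levels do not give the amounts of secreted protein.

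**Figure D3:**
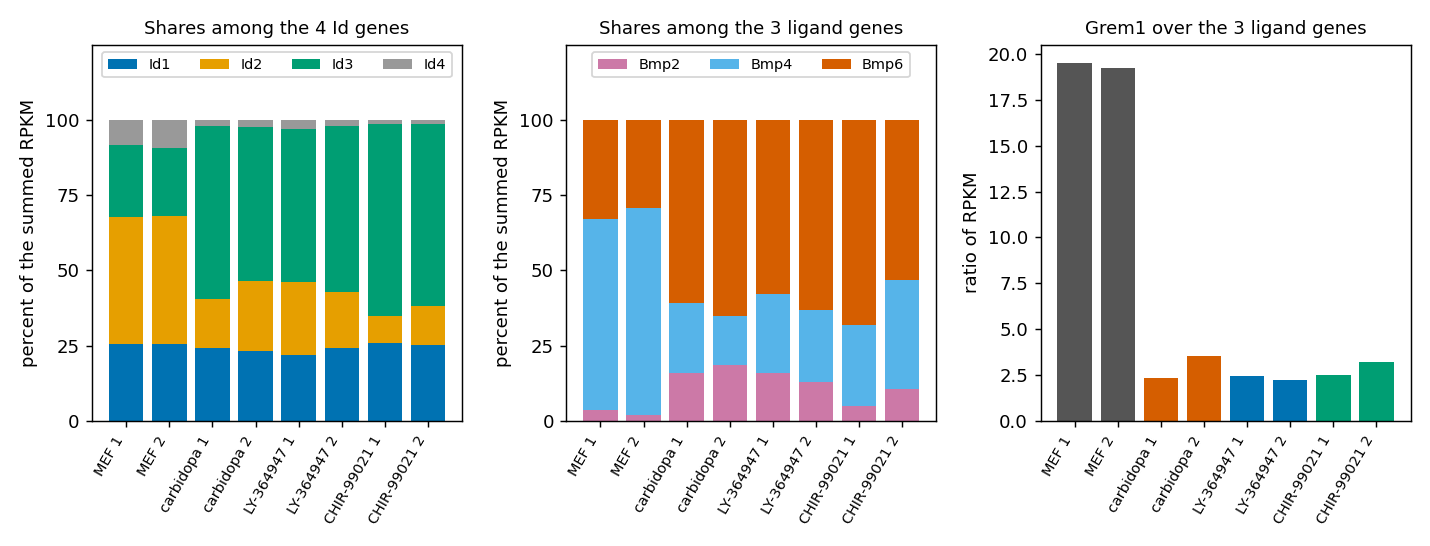
Shares of each Id gene in the summed Id RPKM (left), shares of each ligand gene in the summed ligand RPKM (middle), and the ratio of Grem1 to the summed ligand RPKM (right), with 1 bar per library and axes from 0. Id3 takes 22.7% to 24.0% in MEFs and 51.1% to 63.8% in treated libraries, while Id1 stays at 21.9% to 25.7%.

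The other genes of the pathway were taken from lists of 54 genes, of which 38 had enough counts for a test. Carbidopa-treated cells had 9 of the 38 higher and 23 lower, LY-364947-treated cells 11 and 20, and CHIR-99021-treated cells 9 and 18. Of all genes tested, 18.0%, 13.7% and 18.7% were higher and 19.7%, 17.2% and 20.1% lower in these treatments. Their median log2 fold changes were -0.49, -0.43 and -0.40, beside 0.04, 0.03 and 0.04 for all genes tested. The 16 genes that were not tested included Gdf5, Bmp5, Dlx5, Sp7 and Sost, with at most 12 counts in any library for any of the 16.

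Of 10 tested genes in the list of other antagonists, 8 were lower and 2 higher under carbidopa, 7 and 2 under LY-364947, and 7 and 2 under CHIR-99021. Among all genes, 19.7%, 17.2% and 20.1% were lower and 18.0%, 13.7% and 18.7% higher, so the 2 of 10 that were higher are near the share of all genes. Fst encodes follistatin, which binds activins and, more weakly, BMPs. It had 1015 and 1414 counts in MEF libraries, 16 and 9 in carbidopa libraries, 7 and 11 in LY-364947 libraries, and 8 and 16 in CHIR-99021 libraries. In the same order, the log2 fold changes against MEF were -7.14 (standard error 0.26, edgeR adjusted p = 2.08e-08), -7.39 (0.27, 2.28e-08) and -6.90 (0.26, 3.10e-08). Chrdl1, a chordin-like antagonist, fell by 1.54, 1.23 and 2.43 on the log2 scale. Bambi, a pseudoreceptor without kinase domain and itself a target of BMP and Wnt signaling, was 1 of the 2 that rose, from 3.20 and 2.78 CPM in MEFs to 18.2 to 30.9 CPM in treated libraries, by 2.89 on the log2 scale under carbidopa, 2.78 under LY-364947 and 3.36 under CHIR-99021 (edgeR adjusted p = 2.49e-06, 3.65e-06 and 7.55e-07).

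Among other ligand genes, Bmp7 had 1 and 3 reads in MEF libraries, 77 and 82 in carbidopa libraries, 43 and 52 in LY-364947 libraries, and 23 and 22 in CHIR-99021 libraries. The ratio of pooled reads, scaled by library, was 27.0 for carbidopa (exact 95% confidence interval 10.3 to 100.2, counting error only), 18.8 for LY-364947 (7.10 to 70.4) and 9.41 for CHIR-99021 (3.43 to 36.0). Bmp7 was lower with CHIR-99021 than with carbidopa by 1.51 on the log2 scale (log2 fold change -1.51, edgeR adjusted p = 0.00556). It was also lower with CHIR-99021 than with LY-364947 (-0.99, edgeR adjusted p = 0.0459). Bmp3, which encodes a BMP family member that opposes other BMPs, had 12.1 and 13.2 CPM in MEFs and 2.82 and 2.44 CPM with CHIR-99021. It fell by 2.26 on the log2 scale there (standard error 0.19, edgeR adjusted p = 8.07e-06) and rose by 0.67 with LY-364947 (0.16, 0.00825). Gdf6 rose by 0.81 under carbidopa and by 0.58 under LY-364947 (edgeR adjusted p = 0.00229 and 0.0163).

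Of 10 tested receptor genes, 8 fell under carbidopa, 8 under LY-364947 and 6 under CHIR-99021, beside 19.7%, 17.2% and 20.1% of all genes. The type I receptor gene Bmpr1a fell by 0.54, 0.44 and 0.80 on the log2 scale, and the type II receptor genes Bmpr2 by 1.02, 0.66 and 0.53 and Acvr2a by 1.56, 1.56 and 1.68. The coreceptor gene Rgmb rose in each treatment, from 46.6 and 50.9 CPM in MEFs to 113 to 156 CPM in treated libraries (log2 fold changes 1.37, 1.24 and 1.63).

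The SMAD genes went in both directions. Smad1 rose by 0.99, 0.96 and 0.95 on the log2 scale in the 3 treatments in the same order (standard error 0.10 in each, edgeR adjusted p = 3.04e-05, 4.05e-05 and 4.03e-05). Smad5 fell by 1.31, 1.11 and 1.17, and Smad4, shared with TGF-beta signaling, by 1.71, 1.47 and 1.09. Smad9 rose by 1.21, 1.38 and 0.48 (edgeR adjusted p = 2.30e-04, 9.27e-05 and 0.0437). It was lower with CHIR-99021 than with LY-364947 (log2 fold change -0.90, edgeR adjusted p = 0.00382) and than with carbidopa (-0.73, 0.0111). The 2 inhibitory SMAD genes moved apart. Smad6, which acts mainly against BMP signaling, had 2.75 and 3.94 CPM in MEFs and 7.83 to 14.2 CPM in treated libraries, and rose by 1.84, 1.98 and 1.49 on the log2 scale (edgeR adjusted p = 1.46e-04, 9.03e-05 and 6.63e-04). Smad7, which acts against both BMP and TGF-beta signaling, had 93.4 and 86.1 CPM in MEFs, 20.0 to 22.3 CPM in carbidopa and LY-364947 libraries and 47.4 and 47.7 CPM in CHIR-99021 libraries, and fell by 2.08, 2.09 and 0.92.

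Of the other targets listed, 3 of 8 had enough counts. Atoh8 was not called against MEF (log2 fold changes 0.63, 0.55 and -0.67 under carbidopa, LY-364947 and CHIR-99021). It was lower with CHIR-99021 than with carbidopa (-1.30, edgeR adjusted p = 0.0048) and than with LY-364947 (-1.22, 0.00706). Msx2, a homeobox gene induced by BMPs, rose by 1.58, 1.36 and 1.59 on the log2 scale (edgeR adjusted p = 0.0183, 0.0441 and 0.0177), with 16 and 7 counts in MEFs and 31 to 53 in treated libraries. Runx2, an osteoblast regulator, fell by 1.15 under carbidopa and by 0.94 under LY-364947 (9.90e-05 and 4.17e-04), and its log2 fold change with CHIR-99021 was -0.21 (0.237). The E protein genes, whose products Id proteins bind, moved little: the log2 fold changes of Tcf3, Tcf4 and Tcf12 lay between -0.39 and 0.40, and the 3 that passed were Tcf12 with carbidopa (-0.33, edgeR adjusted p = 0.0387) and Tcf3 and Tcf4 with CHIR-99021 (0.40 and -0.39, 0.0312 and 0.0330).

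**Figure D4:**
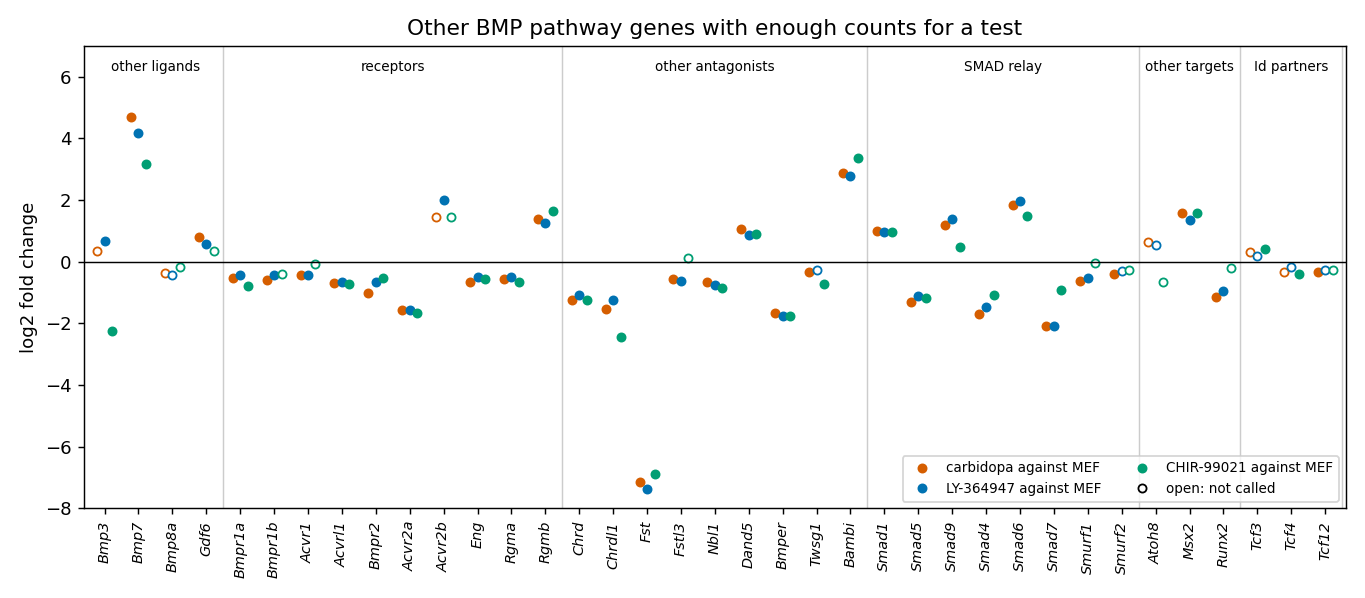
Log2 fold change against MEF of tested pathway genes outside the group of 9, grouped by role, with open points where the adjusted p of edgeR was 0.05 or more. Fst lies lowest and Bambi and Bmp7 highest, and the fitted value of Bmp7 rests on 1 and 3 reads in MEFs.

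The genes whose pattern over the 8 libraries was most like that of a member were found by the root-mean-square difference of log2 CPM, each gene centred on its mean. For Id4 the nearest gene was Cdkn1c, a cyclin-dependent kinase inhibitor gene (difference 0.07, while Id4 itself spanned 1.32), for Grem1 Timp3, a metalloprotease inhibitor gene (0.14 of 3.35), and for Nog Dkk1, a Wnt antagonist gene (0.25 of 3.05). For Id3 the nearest was Rnd1 (0.17 of 3.63), for Id2 Nova1 (0.14 of 1.58), for Bmp2 Rspo4 (0.29 of 3.08), for Bmp4 Cys1 (0.14 of 2.11) and for Bmp6 Fuz (0.11 of 1.15). No member was among the 2 nearest genes of another member.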

How the data were processed

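Counts of reads per gene were deposited for the 8 RNA-seq libraries as whole numbers without normalization. Before that, alignment to mm10 by the authors used STAR (2.4.2a in the submitters' processing notes), and reads were assigned to genes by featureCounts. The annotation release and the use of strand are not given in the sources used here. The labels name a SMARTER kit and the methods a NEBNext kit. Groups and replicate numbers came from the sample titles.

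Counts were analysed in R 4.3.3 with edgeR 4.0.16: filterByExpr, TMM normalization and quasi-likelihood tests for 6 comparisons, from a single fit of all 8 libraries with a term for group and no covariate. P-values were adjusted over all 15154 genes tested by the Benjamini-Hochberg method, and genes with an adjusted p under 0.05 were called. The standard error is the log2 fold change divided by the root of F. Intervals are at 95%. Lengths are merged exons of GENCODE M21, which held 99.6% of the identifiers. A fixed floor of 3 reads per library was used. For a tested member or pathway gene at or under it in both MEF libraries (Bmp7), a ratio of pooled reads was computed. Replicates of each group differed by 4.31 to 34.6 times the chi-square that sampling noise gives, so the replicates were kept apart. The scripts were tested on simulated counts.

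All 9 genes were named. Of each pathway list, Smad1, Smad5, Smad6, Bmpr1a and Bmpr2 and up to 4 called genes with the smallest p were named. Members and lists were chosen with earlier results of these data known. Atoh8, Smad9, the single marker genes, and other genes named among those not tested or at 0 were chosen after their values were seen. Some genes that the rule would name are not reported here.

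Alternatives were the DESeq2 1.42.0 Wald test, RLE size factors, no filter, a minimum of 10 counts per library, fits restricted to the groups of a comparison, the replicate number as a block, and fits without each of the libraries, where a group of 1 library is assumed to vary like the others.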

Additional observations from a re-analysis of the deposited data

How the results depend on the processing

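The 5 higher and 3 lower members with carbidopa and with LY-364947, and the 2 higher and 5 lower with CHIR-99021, were called again by DESeq2, with RLE size factors, with the compared groups alone and with the replicate block. The filter of 10 counts in every library removed Bmp2 and Nog, and left CHIR-99021 minus LY-364947 for Id1 at -0.00018. Without a filter, Id3 was called between LY-364947 and carbidopa (1 member, log2 fold change -0.46).

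With each library left out in turn, 6 to 8 members were called for LY-364947 and for CHIR-99021 against MEF, 8 for carbidopa against MEF, 1 to 4 for CHIR-99021 against LY-364947, 2 to 6 for CHIR-99021 against carbidopa, and 0 to 3 for LY-364947 against carbidopa. The count of 1 came without LY-364947 replicate 1, the counts of 3 and 6 without carbidopa replicate 2, and the count of 2 for CHIR-99021 against carbidopa without either CHIR-99021 library. Signs changed only for differences that were not called with all libraries: carbidopa minus MEF for Id4 (-0.39 to 0.13), CHIR-99021 minus LY-364947 for Id1 (-0.20 to 0.27) and Id3 (-0.092 to 0.33), CHIR-99021 minus carbidopa for Bmp4 (-0.21 to 0.49), Nog (-0.19 to 0.18), Id1 (-0.76 to 0.10) and Id3 (-0.73 to 0.23), and LY-364947 minus carbidopa for Bmp6 (-0.12 to 0.0075), Id1 (-0.78 to 0.072), Id3 (-0.84 to 0.12) and Id4 (-0.39 to 0.14).

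The numbers of all genes called moved most between compounds. For LY-364947 against carbidopa, 2 genes became 16 with DESeq2, 329 without a filter and 0 with those groups alone. With those groups alone, CHIR-99021 against LY-364947 gave 3673 genes in place of 2143, and against carbidopa 1027 in place of 2227. With 1 library left out, 3142 to 7996 genes were called for carbidopa against MEF, 2841 to 6519 for LY-364947 against MEF, 3433 to 7800 for CHIR-99021 against MEF, 663 to 4228 for CHIR-99021 against LY-364947, 715 to 4632 for CHIR-99021 against carbidopa, and 2 to 3816 for LY-364947 against carbidopa. The cause of these shifts was not tested. With libraries matched by replicate number, the correlation of replicate deviations between groups was -0.16 to 0.13. The replicate block changed no call of a member (5473, 4424, 5722, 1973, 2010 and 2 genes called in the 6 comparisons). A batch shared by libraries with different replicate numbers was not tested.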
